A study of Mus musculus with 6 samples.

Results

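This report concerns 10 genes of the Eph receptor and ephrin family in C2C12 cells, a mouse myoblast cell line, in which the gene for the RNA-binding protein Hnrnpa2b1 was either disrupted or intact. The genes are the receptors *Epha2*, *Epha3*, *Epha4*, *Epha5*, *Epha7*, *Ephb2* and *Ephb3* and the ligands *Efna5*, *Efnb1* and *Efnb2*, out of 22 genes of the family and 46078 genes listed in the count table. They were selected on their difference between the genotypes in these same 6 libraries, *Epha7* in particular because it was missing from most KO libraries. Their change between KO and WT is therefore given as a description. Where the text says on which side of the threshold of the fit over all genes they lay, under any setting, this restates how they were chosen and supports nothing about them.

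The 3 KO libraries (KO1 to KO3) came from *Hnrnpa2b1* KO cells made with CRISPR-Cas9, and the 3 WT libraries (WT1 to WT3) from WT cells. The cells had been grown as clones, but the labels do not say which clone gave which library. Cells of both genotypes had been differentiated for 2 days by removing serum and adding the ITS supplement, and ribosomal RNA was depleted before total RNA was sequenced. The libraries held between 33605258 and 40558740 reads counted on genes. *Hnrnpa2b1* itself had 159 to 248 CPM (counts relative to library size) in KO and 225 to 252 in WT, and since a CRISPR edit need not remove the RNA, this level does not check the labels. A value of 3 counts, here 0.0687 to 0.0914 CPM, was taken as the least a library can show.

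Eph receptors are receptor tyrosine kinases whose ligands, the ephrins, are held on the surface of neighbouring cells, so that the signal passes at cell contact. Ephrin-A ligands are attached by a lipid anchor and ephrin-B ligands cross the membrane, and ephrins can signal back into the cell that carries them. The receptors mostly act through exchange factors for small GTPases that rearrange actin, and the family is best known for guiding axons and keeping cell populations apart. In muscle, Eph receptors and ephrins take part in the migration of muscle precursors, in patterning the contact of nerve and fibre, and in fibre-type-specific innervation.

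In brief, 5 of the 10 genes were at higher levels in KO: *Epha2*, *Epha4*, *Ephb2*, *Ephb3* and *Efnb1*, by 1.58 to 3.06 times in mean CPM. *Epha7* was at 13.7 to 18.6 CPM in WT and had no reads in KO2 and KO3. *Efna5* and *Efnb2* were lower in mean CPM in KO, and *Epha3* and *Epha5* were near the limit of detection. Across all 14828 genes tested with edgeR's quasi-likelihood test, 22.7% were past an adjusted p of 0.05 (Benjamini-Hochberg), 12.1% higher in KO and 10.6% lower. Of the 10 genes, 8 passed the filter on low counts and were fitted. Of these, 5 lay past that threshold on the higher side and 0 on the lower side, and in 7 the KO and WT libraries did not overlap in CPM, as was so for 44.3% of all tested genes. These counts follow from how the genes were chosen and were not read further.

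**Figure D1:**
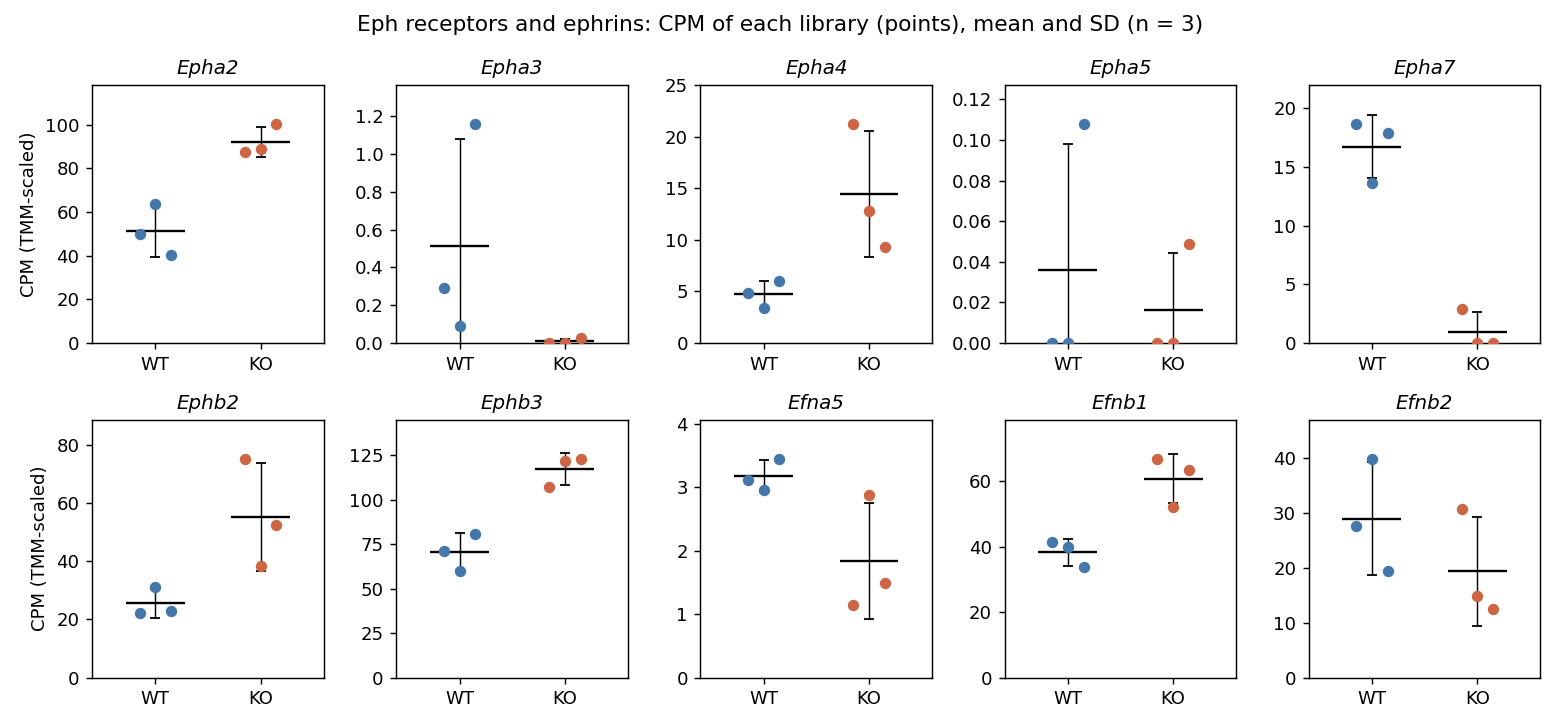
CPM (counts scaled to library size with TMM factors) of each of the 10 genes in the 3 WT and 3 KO libraries (points, in replicate order), with the mean (line) and SD (bars, those of low genes being truncated at 0). *Epha2*, *Epha4*, *Ephb2*, *Ephb3* and *Efnb1* had every KO library above every WT library, and *Epha7* was at 0 in KO2 and KO3.

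*Epha7* (ENSMUSG00000028289, chr4:28813131-28967499, plus strand, GRCm38) encodes a receptor for ephrin-A ligands. It had 645, 449 and 665 counts in WT1 to WT3, or 18.6, 13.7 and 17.9 CPM. It had 104 counts (2.91 CPM) in KO1 and 0 in KO2 and in KO3. All 3 KO libraries thus lay below all 3 WT libraries, but KO1 still held a clear signal whereas KO2 and KO3 held none. Relative to the WT mean of 16.7 ± 2.68 CPM (SD, n = 3), KO1 was 5.76-fold lower, KO2 at least 244-fold lower and KO3 at least 229-fold lower, the last 2 bounds being set by 3 counts per library. The fitted log2 fold change was -4.15 (SE 1.33), a value that depends on the prior count because 2 libraries are at 0, and *Epha7* was not past the threshold. It was past it in 7 of 16 settings, among them, with KO1 kept, no filter on low counts, a replicate block and the fits on TPM. It was also past it when KO1 was left out, where the KO libraries hold no reads and the bounds above are the only measure of size.

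The KO libraries also differed among themselves in muscle differentiation genes. The summed CPM of 14 muscle markers in KO1 was 23500, within the WT range of 17800 to 23800, whereas KO2 stood at 9360 and KO3 at 8200. *Acta1*, the alpha-actin of skeletal muscle, led this sum in every KO library, and *Myh3* led it in every WT library. At 7018 CPM in KO1, *Acta1* was above every WT library. Taken marker by marker, KO1 lay below every WT library for 6 of the 14 and above every WT library for 5. KO2 lay below for 12 and above for 2, and KO3 below for 13 and above for 1. *Tnnc2* among them had only 12 to 22 counts per library. The share of all genes so placed was not computed, so these counts are a description. All 14 were tested and 3 (21.4%) were past the threshold, close to the 22.7% of all genes: *Mef2c* and *Myl1* fell in KO and *Myod1* rose. The part of muscle differentiation in the level of *Epha7* was not tested. In such bulk samples, fewer cells of a kind and less RNA per cell cannot be told apart.

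The genes most like *Epha7* over the 6 libraries, by Pearson's r of log2(CPM + 0.1) and given as a description, were *Trdn* (triadin, a protein of the calcium release complex; r = 0.998), *Myom2* (a myomesin of the sarcomere's M-band; r = 0.998), *Ccdc141* (r = 0.997), *Cfap52* (r = 0.997) and *Sec62* (a subunit of the protein translocation machinery; r = 0.996). The points share libraries and the contrast of genotypes. *Trdn*, like *Epha7*, was highest in KO1 among the KO libraries, at 177, 9.63 and 7.32 CPM, whereas WT stood at 495 to 677 CPM.

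Within 5 Mb of *Epha7*, 22 other genes were tested. Of these, 6 fell in KO (*Klhl32*, *Ndufaf4*, *Ufl1*, *Fut9*, *Manea* and *Rragd*) and 0 rose, beside 10.6% lower and 12.1% higher over all genes, and the median log2 fold change of the 22 was -0.32 against 0.03 for all genes. The lowest value was that of *Klhl32* (log2 fold change -6.17, SE 0.985). Whether *Klhl32* passed the filter on low counts through the WT libraries alone was not examined, so its place among the 6 is a description only. Windows of this size were uneven around several other family genes too. More fell around *Efnb2* (1 rose and 10 fell of 42), *Efnb3* (8 and 33 of 150) and *Ephb1* (2 and 11 of 67). More rose around *Epha2* (15 rose and 4 fell of 80), *Ephb2* (20 and 5 of 152) and *Ephb4* (15 and 5 of 125), among others. The windows were near even around further genes, such as *Epha4* (7 rose and 6 fell of 70), *Ephb3* (7 and 8 of 105), *Efna2* (23 and 20 of 191) and *Ephb6* (4 and 4 of 45). No tested gene lay nearer than *Gm11914*, at 945 kb. *Fut9*, which encodes a fucosyltransferase, lay 3013 kb away and had 20, 22 and 21 counts in KO against 226, 128 and 295 in WT (log2 fold change -3.54, SE 0.345, adjusted p = 0.00147, edgeR). Unlike *Epha7*, *Fut9* was at nearly the same level in the 3 KO libraries. *Gm11915*, a gene on the opposite strand that overlaps *Epha7*, had 8, 7 and 14 counts in WT and 0 in every KO library. Whether the counting used strand is not given in the sources used here, so reads of these overlapping genes could not be told apart.

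**Figure D2:**
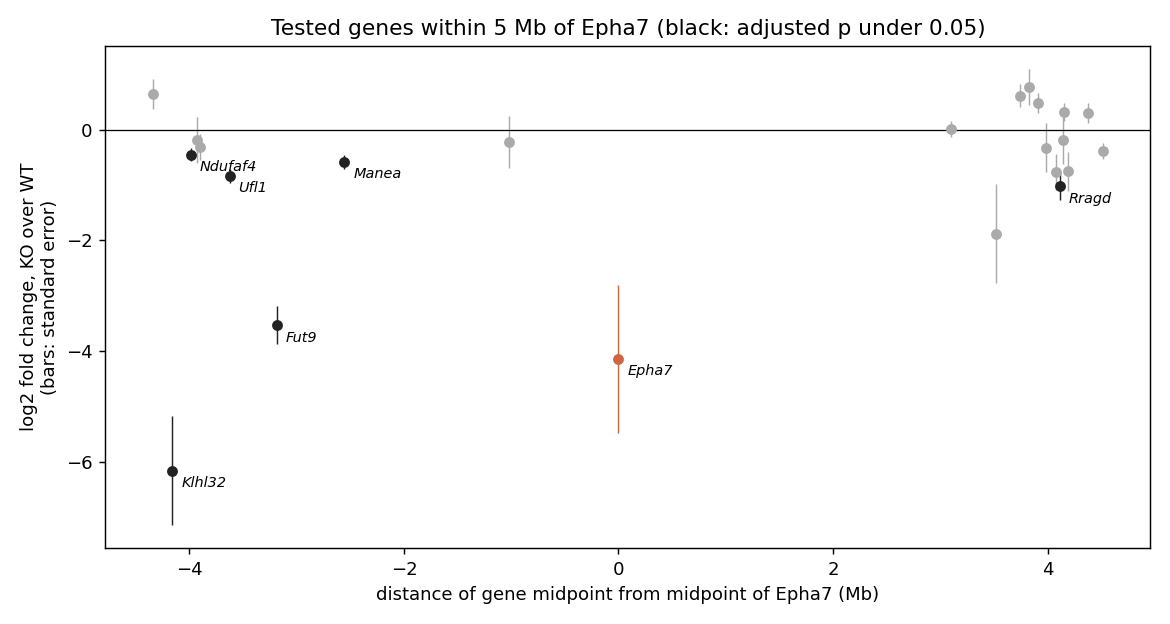
Fitted log2 fold change of KO over WT (vertical axis, bars for SE) of the tested genes within 5 Mb of *Epha7* against the distance in Mb between gene midpoints. The 6 genes past the threshold (black, named) all lie below 0, 5 of them on the same side of *Epha7*.

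Since several receptors were higher together in KO, the 250 bases before the start of each gene were read from RefSeq's promoters (GRCm38.p6), which held 11 entries for the 10 genes. They are shown for *Epha7*, the receptor missing from most KO libraries, and for *Epha2* and *Epha4*, receptors at higher levels in KO, written 5′ to 3′ on the gene's strand. Capitals mark matches on either strand to 5 motifs: GGGCGG, the GC box bound by Sp factors, then CCAAT, the box bound by NF-Y, then TGACGT, the core of a cAMP response element, then TATAAA, the TATA box, and last CANNTG, the E-box of bHLH factors, which include the muscle regulators. A match on the opposite strand stands as its reverse complement.
Epha7, chr4:28812881-28813130, plus strand: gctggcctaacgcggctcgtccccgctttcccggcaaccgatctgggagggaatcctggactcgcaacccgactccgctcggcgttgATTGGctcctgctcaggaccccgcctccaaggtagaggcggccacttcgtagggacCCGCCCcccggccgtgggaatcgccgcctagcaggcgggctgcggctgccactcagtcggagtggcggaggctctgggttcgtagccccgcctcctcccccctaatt
Epha2, chr4:141300971-141301220, plus strand: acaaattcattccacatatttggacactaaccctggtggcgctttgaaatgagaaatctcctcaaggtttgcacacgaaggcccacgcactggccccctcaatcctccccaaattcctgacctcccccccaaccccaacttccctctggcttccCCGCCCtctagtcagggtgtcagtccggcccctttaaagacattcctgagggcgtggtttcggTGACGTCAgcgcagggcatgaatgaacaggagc
Epha4, chr1:77515089-77515338, minus strand: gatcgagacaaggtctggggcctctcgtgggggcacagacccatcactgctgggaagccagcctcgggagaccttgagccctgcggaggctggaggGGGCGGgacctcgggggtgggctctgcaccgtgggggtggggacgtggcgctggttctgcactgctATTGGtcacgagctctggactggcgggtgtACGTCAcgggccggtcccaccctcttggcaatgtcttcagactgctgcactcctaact

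None of these 3 windows held an E-box or a TATAAA, whereas CANNTG occurs in 66.2% and TATAAA in 12.4% of 32851 mouse promoter windows of this length. GGGCGG, present in 32.7% of them, lay 107 bases before the start of *Epha7*, 96 before *Epha2* and 154 before *Epha4*. TGACGT, present in 6.47%, lay 58 bases before *Epha4*, and *Epha2* held its palindromic form, matched on both strands 33 and 31 bases before the start. It was absent from the windows of the other 3 higher genes, *Ephb2*, *Ephb3* and *Efnb1*, so that 2 of these 5 genes held it, and from that of *Epha7*. CCAAT, present in 33.8%, lay 163 bases before *Epha7* and 88 before *Epha4*, and also 64 before *Ephb2*, 10 before *Efnb1*, and 95 and 65 before *Efnb2*. From the other start listed for *Epha7*, it lay 177 and 8 bases before. TATAAA lay 30 bases before *Efnb2*. Distances are from the start listed with each promoter, which can differ from the gene start given in this report. For *Efnb1* the former is chrX:99136061 and the latter chrX:99136130. Among the other genes, E-boxes were found in the windows of *Ephb2* (25 bases before the start), *Ephb3* (173 and 137, the latter reading CAGCTG, which 13.0% of promoters hold) and *Efnb2* (167). The *Epha7* window was 69.2% G and C with 25 CpG, that of *Epha4* 66.0% with 14 and that of *Epha2* 55.6% with 9, against medians of 52.4% and 6 over all promoters. These matches describe the sequence and show no binding.

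*Epha2* (ENSMUSG00000006445, chr4:141301240-141329384, plus strand), a receptor broadly made in epithelia and migrating cells, had 87.7, 89.1 and 100.3 CPM in the KO libraries against 49.98, 63.8 and 40.1 CPM in the WT libraries. The KO libraries were close together and all lay above the WT libraries, which varied more (SD 6.88 and 11.9 CPM, n = 3). The log2 fold change was 0.85 (SE 0.178).

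*Epha4* (ENSMUSG00000026235, chr1:77367185-77515088, minus strand), which binds ligands of both ephrin classes, had 21.2, 12.8 and 9.31 CPM in KO and 4.83, 3.38 and 5.98 CPM in WT. Every KO library was above every WT library and KO1 was highest, at 1.92 times the mean of KO2 and KO3. Its log2 fold change of 1.61 (SE 0.344) was the highest value fitted among the 16 tested family genes.

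*Ephb2* (ENSMUSG00000028664, chr4:136647539-136835988, minus strand), a receptor for ephrin-B ligands, had 75.1, 38.3 and 52.4 CPM in KO against 22.3, 31.0 and 23.1 in WT. KO1 was again highest, at 1.66 times the mean of KO2 and KO3, and the lowest KO library exceeded the highest WT library. The log2 fold change was 1.12 (SE 0.255).

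*Ephb3* (ENSMUSG00000005958, chr16:21204755-21223305, plus strand), also a receptor of the B class, had 107, 122 and 123 CPM in KO against 71.3, 60.1 and 80.8 in WT. Here KO1 was the lowest KO library and still stood above all of WT. The log2 fold change was 0.73 (SE 0.144).

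*Efnb1* (ENSMUSG00000031217, chrX:99136130-99148991, plus strand), a transmembrane ligand of the B class, had 66.7, 52.2 and 63.2 CPM in KO and 41.4, 40.0 and 33.6 in WT. The groups did not overlap. The log2 fold change was 0.66 (SE 0.145). As a description, 0 of the 5 higher genes lay past the threshold when WT1 was left out or on TPM with no filter, and 2 (*Epha4* and *Ephb3*) when WT3 was left out.

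The other B-class ligand, *Efnb2* (ENSMUSG00000001300, chr8:8617434-8661242, minus strand), also known as an arterial marker, had 30.8, 14.9 and 12.5 CPM in KO and 27.5, 39.8 and 19.3 in WT. KO1 lay within the WT range and 2.25 times above the mean of KO2 and KO3, which were both below WT. The log2 fold change was -0.58 (SE 0.38), not past the threshold. It was past it without KO1, at -1.08, and with no filter on low counts.

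*Efna5* (ENSMUSG00000048915, chr17:62604184-62881317, minus strand), a lipid-anchored ligand, had 1.15, 2.88 and 1.49 CPM in KO and 3.12, 2.95 and 3.45 in WT. All KO libraries were lower, though KO2 came within 0.1 CPM of WT2. The log2 fold change was -0.78 (SE 0.373), not past the threshold. It was past it without KO2, at -1.26.

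*Epha3* (ENSMUSG00000052504, chr16:63543534-63864175, minus strand) had 0, 0 and 1 count in KO and 10, 3 and 43 in WT, so that most of its reads came from WT3. *Epha5* (ENSMUSG00000029245, chr5:84054761-84417382, minus strand) had 0, 0 and 2 counts in KO and 0, 0 and 4 in WT. Both receptors are known from the nervous system. Neither passed the filter on low counts; in alternative settings *Epha3* was fitted in 7 and lay past the threshold, on the lower side, in 4 of them, and *Epha5* in 0 of 3.

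**Figure D3:**
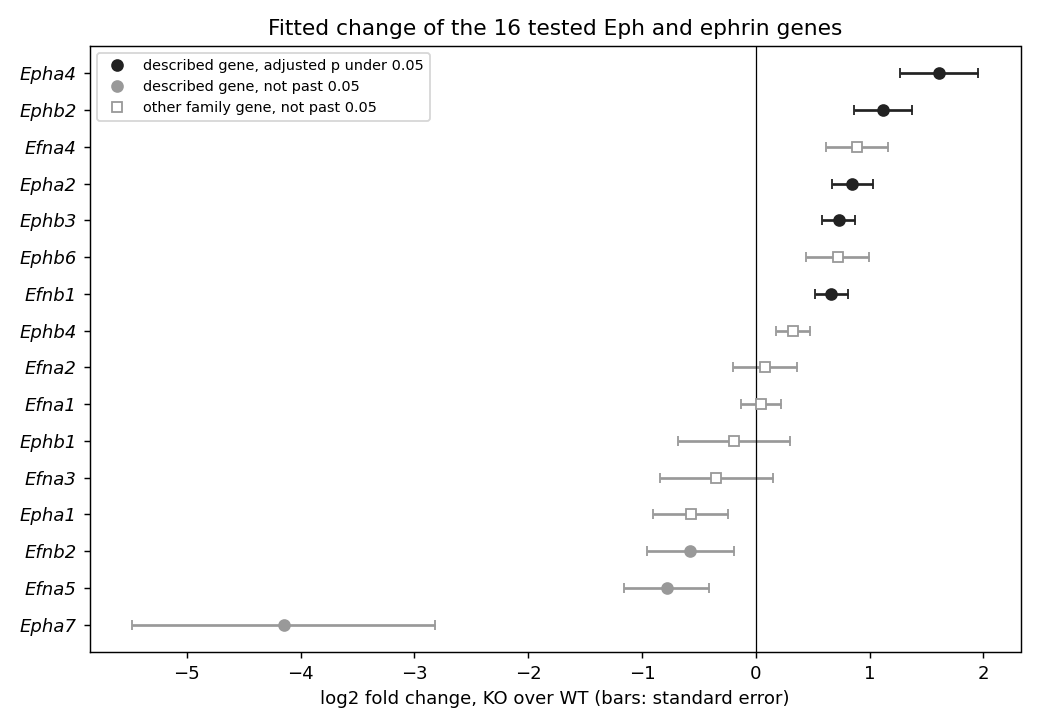
Fitted log2 fold change of KO over WT (horizontal axis, bars for SE) of the 16 Eph and ephrin genes that could be tested, ordered by value. The values run from -4.15 for *Epha7* to 1.61 for *Epha4*; the 10 genes described were chosen by this contrast and the 12 others, of which 8 were tested (squares), were not past the threshold.

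Of the 12 other genes of the family, 8 were tested and 0 were past the threshold (edgeR, adjusted p over all genes), beside 22.7% of all genes. These are the genes left once the 10 described, which hold all 5 family genes past the threshold, had been picked out on the same contrast. That choice largely sets this count. Among them, 2 had an unadjusted p under 0.05 and DESeq2 called 1. *Efna4*, another lipid-anchored ligand, had 124, 234 and 149 counts in KO and 71, 69 and 95 in WT, without overlap (log2 fold change 0.89, SE 0.274, adjusted p = 0.0512, range 0.0242 to 0.185 over all settings). *Ephb6*, a receptor whose kinase domain is inactive, had 71.8, 160 and 127 CPM in KO and 65.0, 86.3 and 66.5 in WT (log2 fold change 0.72, SE 0.276, adjusted p = 0.0951, range 0.00284 to 0.396). Its KO1 library lay within the WT range and was the lowest of the KO libraries, whereas KO1 was the highest for *Epha4* and *Ephb2*.

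*Ephb4*, the usual partner of *Efnb2* in vessels, had a log2 fold change of 0.33 (SE 0.147, adjusted p = 0.143, range 0.0932 to 0.419). *Efna1*, *Efna2*, *Ephb1*, *Efna3* and *Epha1* had log2 fold changes of 0.04, 0.08, -0.19, -0.35 and -0.57, with adjusted p between 0.236 and 0.874. *Epha1* overlaps *Zyx*, which lies on the opposite strand with 6032 to 11264 counts, so its own 113 to 275 counts are uncertain. *Efnb3* had 3 to 11 counts, and *Epha6*, *Epha8* and *Epha10* had at most 3 counts in any library.

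Levels of different genes were compared on the TPM scale, which is per length of transcript. In WT, *Ephb6* had the highest mean (13.1 ± 2.72 TPM, SD, n = 3), followed by *Ephb3* (11.4 ± 1.05), *Epha2* (9.05 ± 2.54), *Efnb1* (7.95 ± 1.21) and *Efna1* (7.04 ± 0.771). Each of these overlapped the next in its range over libraries, whereas *Efna1* and the next gene, *Ephb4* (5.25 ± 0.728), did not. Then came *Efnb2* (4.52 ± 1.78), *Ephb2* (3.58 ± 0.928) and *Epha7* (2.01 ± 0.357), with a gap between *Ephb2* and *Epha7*. *Efna2* (1.68), *Epha1* (1.01), *Efna4* (0.963), *Efna5* (0.654), *Efna3* (0.608), *Epha4* (0.519) and *Ephb1* (0.27) followed, and the remaining 6 had means under 0.1 TPM. Neighbours did not overlap after *Efna4*, after *Epha4* and after *Ephb1*, and overlapped elsewhere down to that point. In KO the order changed mainly for *Ephb2*, which moved from rank 8 to 5, *Epha4* from 15 to 11, *Efna4* from 12 to 9 and *Epha7* from 9 to 16.

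Summed by class, the EphA receptors had 16.8, 17.1 and 22.3 TPM in the KO libraries (18.7 ± 3.08, SD, n = 3), all above those of WT (12.7 ± 2.56). *Epha2* made up 82.8 to 91.0% of this sum in KO and 65.1 to 76.6% in WT, so that the A class consisted mostly of this receptor in both genotypes, with a larger share in KO. The EphB receptors summed to 42.8, 59.0 and 63.2 TPM in KO and 31.7, 37.3 and 31.7 in WT, with no overlap. The ephrin-A ligands stood at 10.4 to 12.1 TPM in KO and 10.3 to 12.1 in WT, and were mostly *Efna1* in every library. The ephrin-B ligands stood at 12.5 to 17.0 TPM in KO and 9.41 to 15.1 in WT, overlapping, while the share of *Efnb1* in them was 73.7 to 86.8% in KO and 57.3 to 69.6% in WT. These sums are a description, since they contain the genes chosen for their difference.

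**Figure D4:**
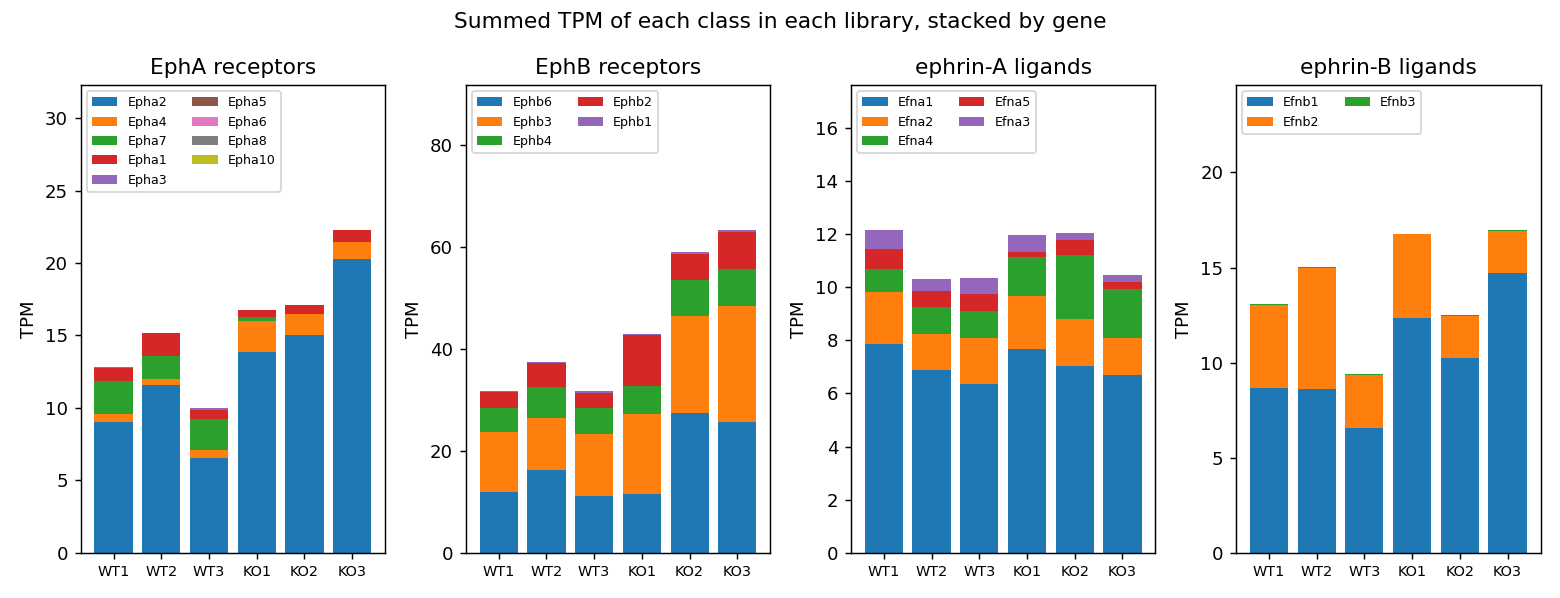
Summed TPM (vertical axis) of the EphA receptors, EphB receptors, ephrin-A ligands and ephrin-B ligands in each library, stacked by gene; the vertical scales differ. The receptor sums of both classes were higher in every KO library than in every WT library, and the ephrin-A sums lay between 10.3 and 12.1 in all 6 libraries.

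Genes that act with Eph receptors and ephrins were examined in 5 lists of 53 genes, of which 49 were tested. Of these, 21 (42.9%) differed between KO and WT beside 22.7% of all genes, 15 higher and 6 lower, and the median log2 fold change of the 49 was 0.16 beside 0.03 over all genes. The 6 lower include *Grip1*, which passed the filter on low counts through the WT libraries alone. When WT1 was left out 6 partner genes were past the threshold, 7 without WT3, 9 without WT2 and 11 without KO3. The count over all genes was also lower in these settings. It was 933 of 15521 tested without WT1, 1288 of 15272 without WT3, 2100 of 15408 without WT2 and 2088 of 14989 without KO3.

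Among 17 tested regulators and effectors of these GTPases, the GTPases included, 9 rose and 1 fell in KO (58.8% called). Of all tested genes, 12.1% rose and 10.6% fell (22.7% called). The median log2 fold change of the list was 0.46, beside 0.03 over all genes. All 8 tested exchange factors of this list rose, a grouping made after their values were seen. *Tiam1*, an exchange factor for Rac, had 39.3, 22.4 and 53.0 CPM in KO and 4.13, 8.13 and 4.69 in WT (log2 fold change 2.76, SE 0.377, adjusted p = 0.00393, edgeR). *Arhgef19* had 16.3, 31.3 and 35.4 CPM in KO and 6.39, 7.89 and 8.43 in WT (1.87, SE 0.291, adjusted p = 0.00587, edgeR). Neither gene overlapped between genotypes, and both stayed past the threshold whichever library was left out. *Arhgef19* lies 43.7 kb from *Epha2* on chromosome 4 and is among its 4 nearest tested genes.

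*Vav3* and *Vav2*, exchange factors that bind activated Eph receptors, rose by log2 fold changes of 1.40 (SE 0.284, adjusted p = 0.0137) and 0.78 (SE 0.175, adjusted p = 0.019) in the edgeR test. *Ngef* (ephexin-1, an exchange factor bound to *Epha4*) rose by 1.24 (SE 0.281, adjusted p = 0.0199, edgeR), from 3.32 to 4.08 CPM in WT to 6.29 to 12.2 CPM in KO. Like *Epha4*, *Ngef* was highest in KO1. *Kalrn* rose by 1.08 (SE 0.302, adjusted p = 0.0383, edgeR). The other called genes of the list lay outside the rule for named genes and were added after their values were seen. The exchange factors *Itsn1* (0.69) and *Arhgef5* (0.46) and the kinase *Pak1* (0.53, adjusted p = 0.0325, edgeR) rose. *Wasl* (N-WASP, an activator of actin assembly), the only gene of the list past the threshold on the lower side, had a log2 fold change of -0.50 (adjusted p = 0.0331, edgeR). All 8 exchange factors had a positive log2 fold change under every alternative, with 2 of them past the threshold without WT1 or without WT3, 3 without WT2 and 5 without KO3. On TPM, 4 of the 8 were past the threshold with either pseudocount or after rescaling, and 0 with no filter. *Pak1* was past it in 6 of 16 settings and *Wasl* in 7, and neither on TPM or with a replicate block. The GTPases themselves, *Rhoa* (-0.08), *Rac1* (0.05) and *Cdc42* (-0.33), were not past the threshold, with adjusted p of 0.707, 0.825 and 0.143.

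Among 13 tested adaptors and kinases, 3 rose and 3 fell (46.2% called), beside 12.1% of all genes that rose and 10.6% that fell (22.7% called). The Src-family kinases were split: *Yes1* rose (log2 fold change 0.68, SE 0.112, adjusted p = 0.00705, edgeR) and *Src* rose (0.62, SE 0.153, adjusted p = 0.0268), whereas *Fyn* fell (-0.72, SE 0.175, adjusted p = 0.0245). *Yes1* was past the threshold in 14 of 16 settings, *Fyn* in 10 and *Src* in 9; with 1 library left out, *Fyn* was past it only without KO1 and *Src* only without KO1 or WT2. *Grb10*, an adaptor of receptor tyrosine kinases, had 1.62, 1.72 and 0.61 CPM in KO against 11.5, 5.57 and 11.8 in WT (-2.87, SE 0.46, adjusted p = 0.00635, edgeR). *Rasa1*, a GTPase-activating protein for Ras, rose by 0.71 (adjusted p = 0.0437, range 0.00263 to 0.267 over all settings, past the threshold in 7 of 16). *Anks1*, an adaptor that protects Eph receptors from degradation, fell by 0.52 on the log2 scale (adjusted p = 0.0451, range 0.0287 to 0.321, past the threshold in 4 of 16), and was not past it with any library left out.

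Of 4 tested phosphatases, 1 (25.0%, beside 22.7% of all genes) was past the threshold: *Ptpn1*, which removes phosphate from Eph receptors, rose (log2 fold change 0.82, SE 0.191, adjusted p = 0.0216, edgeR) and 0 fell. *Ptpn1* was past the threshold in 11 of 16 settings, and not without KO3, WT1, WT2 or WT3. Of 8 partners of the ephrin-B tail, 0 rose and 2 fell (25.0% called, again near the share of all genes). *Grip1*, a PDZ scaffold, had 1, 0 and 1 count in KO against 53, 14 and 60 in WT. It passed the filter on low counts through the WT libraries alone, so its place past the threshold is a description only. *Ptpn13*, a PDZ phosphatase that acts on the ephrin-B tail, had 19.3, 22.3 and 21.1 CPM in KO and 47.2, 51.3 and 47.0 in WT (-1.21, SE 0.124, adjusted p = 0.00167, edgeR). *Ptpn13* thus fell to a closely similar level in the 3 KO libraries and was past the threshold in all 16 settings run.

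Among proteases that cut Eph receptors or ephrins, *Mmp14*, a membrane metalloprotease that cleaves *Epha2*, rose. It had 405, 386 and 503 CPM in KO and 163, 210 and 187 in WT (log2 fold change 1.21, SE 0.169, adjusted p = 0.00426, edgeR). *Adam10*, the best known ephrin sheddase, was at 65.7 to 71.7 CPM in KO and 55.8 to 68.0 in WT (0.20, adjusted p = 0.275).

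**Figure D5:**
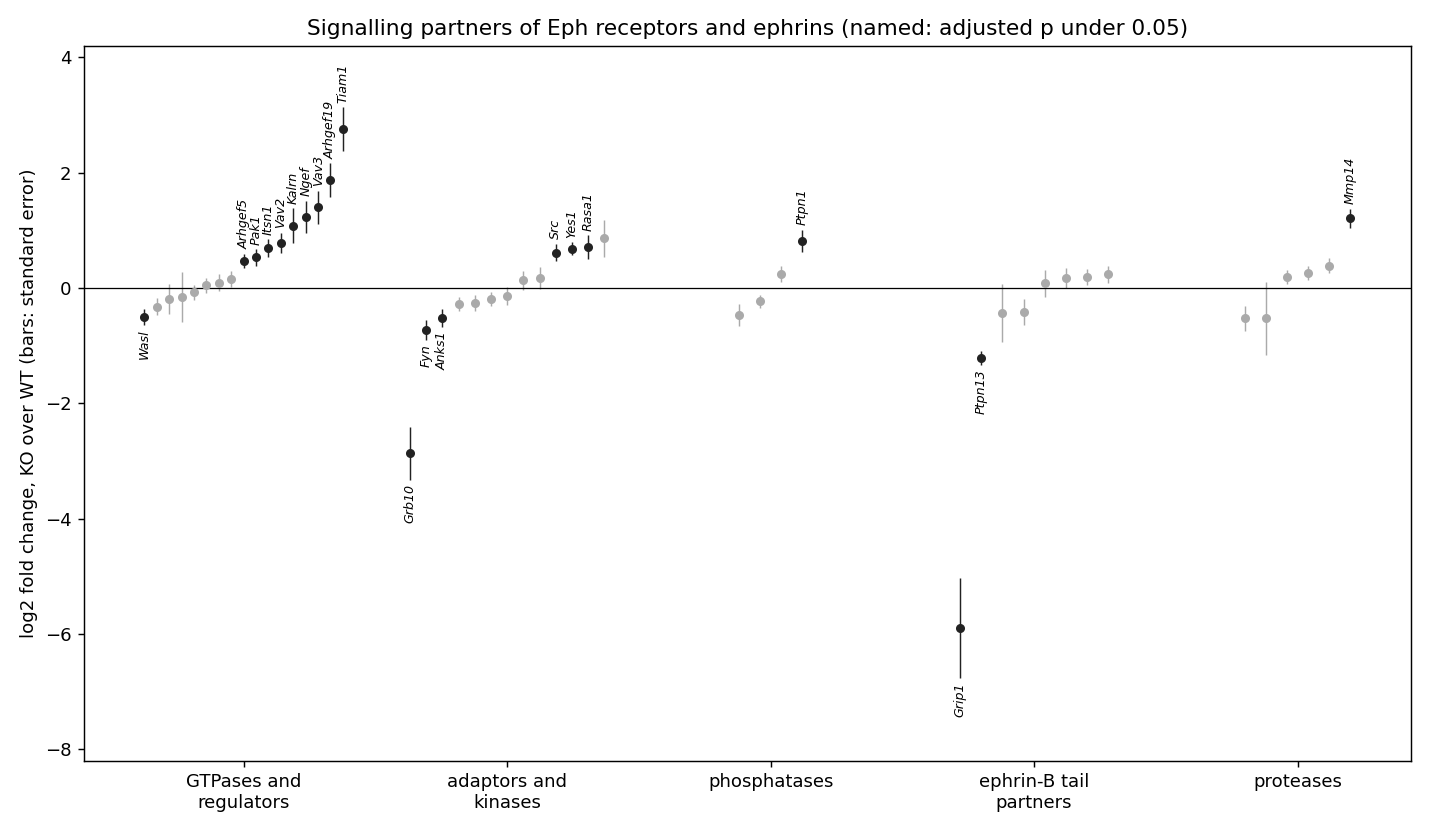
Fitted log2 fold change of KO over WT (vertical axis, bars for SE) of tested partner genes, in 5 lists and ordered by value within each. The named genes (black) were past an adjusted p of 0.05; 9 of the 10 in the first list lie above 0, and the lowest value is that of *Grip1*, whose KO libraries held at most 1 count each.

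Since Eph receptors and ephrins are also made by other cells, markers of those cells were read in the same libraries, beside the 12.1% of all tested genes that rose and the 10.6% that fell. All libraries came from cultures of the C2C12 myoblast line, so the level of a marker here describes RNA of that line and does not count other cells. Of 10 neural markers 5 were tested and 3 (*Tubb3*, *Syn1* and *Stmn2*) rose, although *Stmn2* overlapped between genotypes (6.36 CPM in KO3, 6.43 in WT2). The sum was 50.3 to 121 CPM in KO and 31.8 to 43.7 in WT. *Map2* led it in every library but KO1, where *Stmn2* (23.6 CPM) and *Tubb3* (13.0 CPM) stood above it. *Map2* was not past the threshold (adjusted p = 0.439, edgeR) and had 11.7, 92.5 and 34.1 CPM in KO and 25.9 to 33.7 in WT. Without *Map2* the sum was 28.9 to 38.6 CPM in KO, above every WT library, while *Rbfox3*, *Nefm*, *Nefl* and *Snap25* had at most 3 counts in every library. Of 6 fibroblast markers 3 were tested and *Pdgfra* rose, with a sum, mostly *Col3a1* (adjusted p = 0.132), of 5040 to 8320 CPM in KO and 3440 to 4500 in WT, and *Tcf21* had at most 3 counts. The 6 endothelial markers summed to 0.224 to 0.755 CPM in KO and 1.21 to 2.10 in WT, and *Pecam1*, *Emcn* and *Tie1* had at most 3 counts. Of the 6, 2 were tested and *Kdr* lay past the threshold on the lower side. *Kdr* had 2, 16 and 10 counts in KO and 25, 31 and 51 in WT. It passed the filter through the WT libraries alone, so this is a description only. The 5 Schwann cell and glial markers stood at 1.10 to 1.63 CPM in KO and 0.838 to 1.32 in WT. The 5 immune markers stood at 2.63 to 3.91 and 2.19 to 2.75 CPM, with *Adgre1* and *Cd3e* at most at 3 counts. The part of these markers in the levels of the Eph and ephrin genes was not tested.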

How the data were processed

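Total RNA of 6 libraries, 3 KO and 3 WT, was analysed. Per the labels and the study's methods, the authors trimmed and aligned the reads with STAR and deposited raw counts per gene for all libraries, together with StringTie TPM values for each library. The study's methods name GRCm39 and the processing notes mm9, whereas 91.0% of 45137 genes in the deposited files share a start or end with GENCODE's GRCm38 annotation, so GRCm38 positions are given. All 6 count columns were used and 0 were left unused.

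Counts were scaled by TMM, filtered with filterByExpr and tested two-sided with edgeR 4.0.16 (quasi-likelihood, genotype only) in R 4.3.3, with Benjamini-Hochberg adjustment over 14828 genes and a threshold of 0.05; the script was tested on simulated data. CPM used the TMM-scaled library sizes. The genes described, the lists and the tests were chosen with earlier results of these data known. Named were all 22 family genes, up to 6 called genes of each partner list with the largest change (1 of these is not reported here), and the 5 genes most like *Epha7* among those of mean log2 CPM of at least 1. Alternatives used DESeq2 1.42.0, limma 3.58.1 on log2(TPM + 1) of genes with at least 1 TPM in 3 libraries, a pseudocount of 0.1, other scaling and filters, a replicate block, and each library left out. Rescaling TPM without 4 short RNAs, which took 44.3 to 51.1% of it, was added after the data were seen. No library repeated another (chi-square per degree of freedom 46.6 to 171 within genotypes). The study's methods describe independent clones of each genotype, but the labels do not tie a library to a clone, so p-values measure the spread between these libraries.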

Additional observations from a re-analysis of the deposited data

How the results depend on the processing

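Of the 10 genes described, 5 were past the threshold in the analysis as reported, 8 with no filter on low counts, 1 on TPM with no filter, and 0 to 8 when 1 library was left out, 0 being without WT1, 2 without WT3 and 8 without KO1. *Epha7* was past it in 7 of 16 settings, with log2 fold changes of -12.31 to -1.47, the former without KO1, where KO holds no reads and the prior count sets the value. Of the other family genes, 0 were called in the analysis as reported and 1 with DESeq2, with no filter, with a filter of 1 CPM and on TPM with a pseudocount of 1 or 0.1 or rescaled, and 0 to 2 when 1 library was left out. Of the partner genes, 21 were called as reported, 11 on TPM with either pseudocount, 2 on TPM with no filter, 12 on rescaled TPM, and 6 to 22 when 1 library was left out. Over all genes, 3361 were called as reported, 1075 on TPM with no filter, and 933 to 4712 when 1 library was left out. On log2(TPM + 1), 1004 genes were higher and 1390 lower, against 1796 and 1565 on counts; on TPM rescaled without the 4 short RNAs, 1294 were higher and 1082 lower. Among family genes, the sign turned for *Ephb1* (0.01 on TPM with no filter, and -0.68 to 0.20 with 1 library left out, positive without KO1), *Efna1* (-0.09 to 0.18, negative at -0.09, -0.02 and -0.01 without KO1, WT2 and WT3) and *Efna2* (-0.11 to 0.27, negative at -0.11 and -0.10 without KO1 and WT2), none of which was called. Among partner genes, it turned for some that were not called in the analysis as reported, such as *Rhoa* (-0.17 to 0.02) and *Rac1* (-0.04 to 0.13). *Chn1* also turned (-0.93 to 0.15) and was past the threshold in 1 of 16 settings. The cause of these sign changes was not tested. A fit with the replicate number as a block called 2520 genes, 16 partner genes, 6 of the 10 genes described and 0 of the other family genes; libraries of the same number deviated with correlations of 0.137, -0.116 and 0.004, and not every library correlated best with its own number, so the numbers were not taken to pair the libraries. *Epha3*, left out by the filter, was called lower with DESeq2, with no filter, without KO1 and without WT2. At these depths, differences in *Epha6*, *Epha8* and *Epha10*, with at most 3 counts in a library, were not detectable.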
